A study of Mus musculus with 8 samples.

Results

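The 39 interferon-stimulated antiviral genes described here were taken by gene symbol from 8 RNA sequencing libraries of the mouse squamous cell carcinoma line A223, and all 39 were found among the 24411 genes listed. They were chosen by name as genes of the interferon response, with earlier results of these data known. They were divided into 13 signalling members (transcription factors, RNA sensors with a regulator, the ISG15 system and ADP-ribosylation factors) and 26 effectors. All 39 were among the 12517 genes with enough counts to be tested. The cells were either parental or carried a knockdown of PRDX6 (KD), an antioxidant enzyme that detoxifies peroxides, including those of phospholipids. Both genotypes were harvested in DMSO, the solvent, at 0 h and in 100 nM largazole at 18 h, a drug that blocks histone deacetylases of class I, which gave 4 groups of 2 libraries each. Because drug and time changed together, an effect of largazole cannot be told apart from 18 h of culture. The knockdown reagent is not given in the sources used here, and no non-targeting construct was analysed here, so an effect of the knockdown procedure cannot be told apart from lower PRDX6. The labels do not say whether replicate libraries stem from independent cultures, and p-values therefore reflect a spread that may be technical only.

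Interferons are secreted proteins that bind cell surface receptors and activate Janus kinases, which phosphorylate STAT transcription factors. Type I and type III interferons act through a complex with STAT2 and IRF9 that binds the interferon-stimulated response element (ISRE), while type II interferon acts through STAT dimers at the gamma-activated site (GAS). The induced genes include sensors and transcription factors that prolong the response, feedback inhibitors, and effectors that block virus entry, translation, replication or release.

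Each library held 13020492 to 15613216 estimated counts, and expression is given as CPM, counts scaled to a common library size with TMM factors. Prdx6 itself fell in KD cells by 1.80 ± 0.11 on the log2 scale (SE) in DMSO and by 1.75 ± 0.11 under largazole (edgeR, adjusted p = 1.41e-05 and 1.76e-05), and its KD libraries at 64.9 to 86.6 CPM did not overlap the parental libraries at 233 to 297 CPM. Rn45s, the ribosomal RNA precursor, ranged from 742 to 23920 CPM, with the highest levels in replicate 1 of KD largazole, KD DMSO and parental largazole. The 10 markers of squamous epithelium summed to 72.6 to 207 CPM, most of it Itgb4 at 69.5 to 197 CPM, and Sfn was at 1.75 to 4.13 CPM. Krt5, Krt15, Krt6a and Krt17 never exceeded 4 counts, and Cdh1 had 1 to 11. Trp63 and Epcam had 0 counts in all DMSO libraries, but 6 to 12 and 36 to 51 in largazole libraries. Krt14 had 0 to 3 counts in DMSO and 19 to 47 in largazole libraries. With largazole 4 of 5 tested markers of this list were called higher in each genotype, where 26.9% (parental) and 25.0% (KD) of tested genes were. Krt14, Trp63 and Epcam were tested only because of their counts in largazole libraries, so the filter fixed their direction. The count of 4 therefore cannot be set against those shares. Of the other tested markers, in parental cells Itgb4 rose (0.77 ± 0.09, adjusted p = 0.000106) and Sfn did not pass (0.41 ± 0.35, adjusted p = 0.353). The 7 fibroblast markers summed to 2900 to 4170 CPM. In bulk RNA a change in the number of expressing cells and a change in RNA per cell cannot be told apart.

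Without drug the antiviral genes stood higher in KD cells than in parental ones. In DMSO 38 of 39 members rose and none fell, where 7.01% of all tested genes were called higher and 4.02% lower (quasi-likelihood test of edgeR, adjusted by Benjamini-Hochberg over all tested genes, threshold 0.05). Because the list was chosen with earlier results known, shares of all genes are set beside its counts as a description only. All 13 signalling members rose, with a median log2 fold change of 2.28, and 25 of 26 effectors rose, with a median of 3.44. The median over all 39 was 2.52, against 0 over all tested genes. Isg20 alone missed the threshold (0.26 ± 0.20, adjusted p = 0.485), and Irf1 was close to it (0.38 ± 0.11, adjusted p = 0.0484). In 7 members (Oas1a, Oas2, Mx1, Mx2, Iigp1, Cmpk2 and Ifi44) both parental DMSO libraries held under 10 counts, so that they were tested because of their counts in other groups. All 7 are effectors, with log2 differences from 3.68 (Mx1) to 6.13 (Iigp1). The higher effector median rests in part on them, and no gap between the roles was tested. Of the 32 others 31 rose, with a median of 2.30. Among these others, Usp18 (9 and 21 counts) and Rsad2 (3 and 14) had 1 parental DMSO library under 10 counts. They too were tested because of their counts in other groups. By the fitted fold, 35 members stood at least 2-fold, 27 at least 4-fold and 10 at least 16-fold higher. In 38 members both KD DMSO libraries lay above both parental DMSO libraries, a separation seen in 30.5% of tested genes. Summed over the 39 members, the level was 339 and 373 CPM in parental DMSO replicates 1 and 2, and 1682 and 1051 CPM in the KD DMSO replicates. Without any 1 library 31 to 38 members were called, and the fitted difference of every member kept its positive sign. Beside this difference, the 7 fibroblast markers summed to 2900 and 2910 CPM in the parental and 3990 and 4070 CPM in the KD DMSO libraries. All 6 tested markers of that list were called higher, where 7.01% of tested genes were. Their log2 differences were 1.97 ± 0.11 (Thy1), 1.26 ± 0.08 (Dcn), 0.94 ± 0.09 (Pdgfrb), 0.50 ± 0.08 (Col1a1), 0.40 ± 0.11 (Pdgfra) and 0.35 ± 0.08 (Col1a2). The part of these markers in the members' difference was not tested. The 4 leukocyte markers summed to at most 0.461 CPM in any DMSO library, and Ptprc, which defines leukocytes, was at 0 there.

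**Figure D1:**
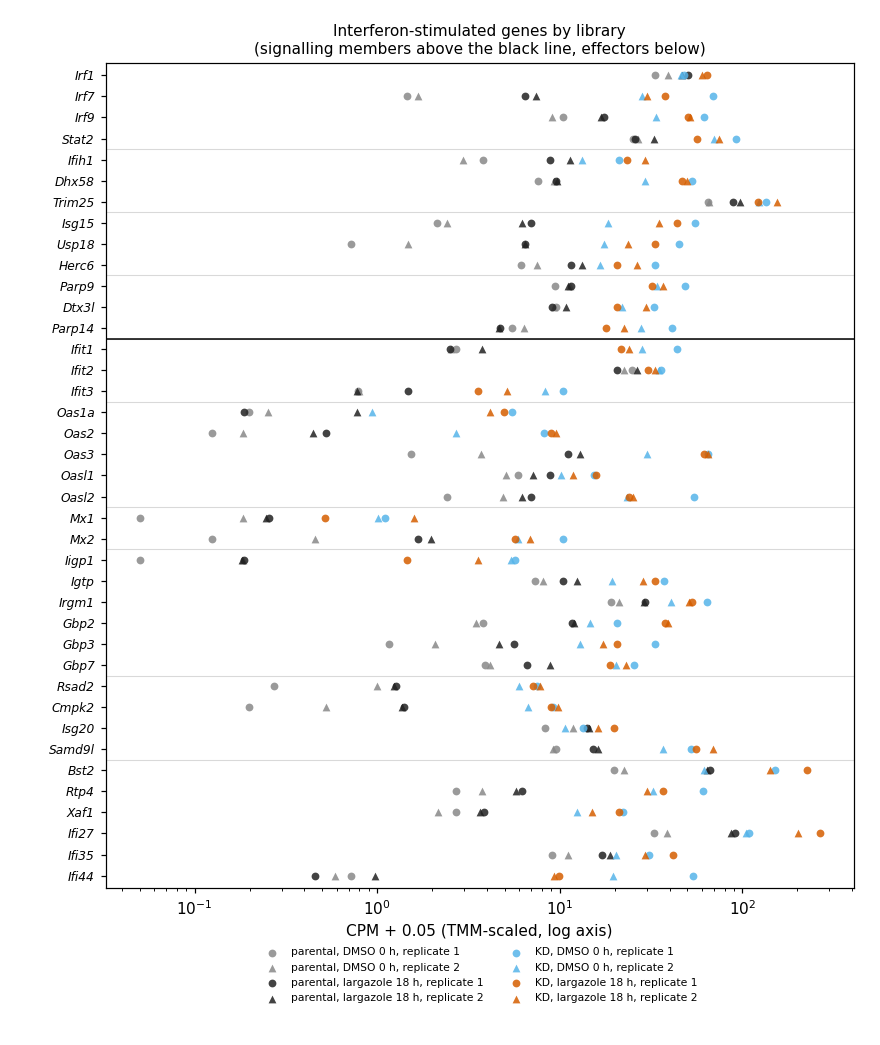
CPM of each member in each of the 8 libraries on a log axis, after adding 0.05 so that values of 0 can be drawn, with signalling members above the black line and effectors below it. Circles are replicate 1 and triangles replicate 2. For 36 of 39 members the 4 KD libraries (blue and orange) lie above the 4 parental libraries (grey and black).

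A part of the members shares promoter letters. The members were chosen as genes of the interferon response, which acts through the ISRE and the GAS. A raised share of such letters therefore goes with the choice and is no result on the knockdown. RefSeq promoter windows on GRCm38.p6, from 250 bases before to 50 after the annotated start, were available for 29 of 39 members. The ISRE-type letters, GAAA, any 2 bases and GAAA again, were searched on both strands, and overlapping matches were counted. They were found in 14 of these 29 genes (48.3%), against 3.99% of 27025 genes in the same table. The GAS-type letters TTCNNNGAA were found in 8 of 29 (27.6%), against 9.55%. Of 9 signalling members with a window 3 held ISRE-type letters, and of 20 effectors 11 did. The following stretches are shown because they hold these letters in members of several roles that rose with the knockdown. Each is written 5′ to 3′ on the gene's own strand and ends before the RefSeq start site, with ISRE-type matches in capitals. In the GENCODE annotation Gbp2 starts at 142620602 and Gbp3 at 142560026, within their stretches. Isg15 lies at chr4:156200819-156201068 (minus strand), Ifit1 at chr19:34640774-34640823 (plus), Ifit3 at chr19:34583370-34583419 (plus), Oas1a at chr5:120907526-120907562 (minus), Oas3 at chr5:120777705-120777754 (minus), Gbp2 at chr3:142620584-142620633 (plus), Gbp3 at chr3:142559982-142560031 (plus), Bst2 at chr8:71537570-71537619 (minus) and Stat2 at chr10:128270256-128270305 (plus).
Isg15: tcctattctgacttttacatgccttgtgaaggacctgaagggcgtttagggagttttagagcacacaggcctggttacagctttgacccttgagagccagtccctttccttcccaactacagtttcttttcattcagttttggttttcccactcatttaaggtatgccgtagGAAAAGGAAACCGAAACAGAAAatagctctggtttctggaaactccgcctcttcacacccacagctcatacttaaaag
Ifit1: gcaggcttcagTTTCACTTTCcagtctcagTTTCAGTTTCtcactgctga
Ifit3: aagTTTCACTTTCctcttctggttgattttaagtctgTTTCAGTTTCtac
Oas1a: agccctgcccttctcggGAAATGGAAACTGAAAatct
Oas3: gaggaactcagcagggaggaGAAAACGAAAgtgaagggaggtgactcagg
Gbp2: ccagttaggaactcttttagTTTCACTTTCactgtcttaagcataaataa
Gbp3: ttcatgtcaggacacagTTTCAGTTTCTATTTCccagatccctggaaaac
Bst2: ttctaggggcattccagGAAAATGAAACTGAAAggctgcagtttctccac
Stat2: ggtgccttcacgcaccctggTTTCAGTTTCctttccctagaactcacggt

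Isg15 carries 3 overlapping matches in 1 run, Ifit1 and Ifit3 carry 2 separate ones each, and the others shown carry 1 match or 2 overlapping ones. A match is a description of letters and no evidence of binding. The 14 members with ISRE-type letters had a median log2 knockdown difference of 2.99 in DMSO, with a range of 1.38 to 4.19. The 15 members whose window lacked the letters had a median of 1.89 and a wider range of 0.26 to 5.92, so large differences occurred in both sets. The 10 members without a window in the table had a median of 3.77, and no order between the sets was tested.

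**Figure D2:**
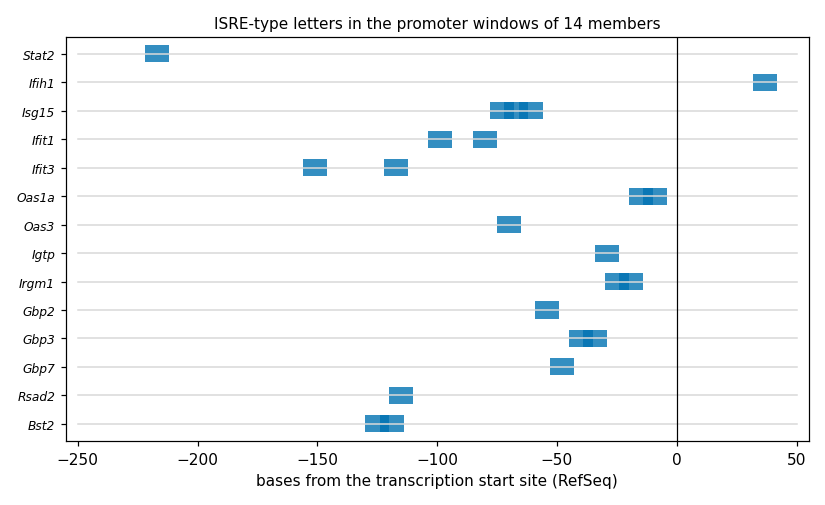
Positions of ISRE-type letters (blue, each 10 bases wide, darker where matches overlap) in the RefSeq promoter windows of the 14 members that hold them, in bases from the annotated start site. In 13 of the 14 members the letters lie before the RefSeq start site, and in Ifih1 they lie after it.

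Among the signalling members, the transcription factors differed widely from each other. Irf7, the factor that amplifies type I interferon genes, was at 1.41 and 1.62 CPM in parental DMSO, 68.8 and 28.4 in KD DMSO, 6.40 and 7.38 in parental largazole and 37.6 and 30 in KD largazole (replicates 1 and 2 in that order, here and below). Its KD libraries lay above all parental libraries, and its log2 difference was 5.0 ± 0.47 in DMSO and 2.29 ± 0.37 under largazole (adjusted p = 0.000145 and 0.00263). Irf9, the DNA-binding subunit of the ISRE complex, was at 10.4 and 9.04 CPM in parental DMSO and 61.9 and 33.8 CPM in KD DMSO, a log2 difference of 2.31 ± 0.25 (adjusted p = 0.000341). Stat2, its partner in that complex, was at 25.1 and 26.7 against 92.9 and 70.3 CPM (1.66 ± 0.18, adjusted p = 0.00034). Irf1, which is best known as a target of interferon gamma, showed the smallest difference among the signalling members. It stood at 33.4 and 39.1 CPM in parental DMSO and 48.1 and 46.0 CPM in KD DMSO, and these KD libraries overlapped the parental largazole libraries at 50.3 and 46.9 CPM.

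The cytosolic RNA sensors and the regulator Trim25 rose as well. Ifih1, which encodes the sensor MDA5 for long double-stranded RNA, was at 3.77 and 2.90 CPM in parental DMSO and 21.0 and 13.3 CPM in KD DMSO (2.37 ± 0.28, adjusted p = 0.000528). Dhx58, which encodes LGP2, a regulator of MDA5 and RIG-I, was at 7.54 and 9.31 against 52.7 and 29.4 CPM (2.28 ± 0.25, adjusted p = 0.000374). Trim25, a ubiquitin ligase of the RIG-I pathway, was already at 65.2 and 65.9 CPM in parental DMSO and stood at 134 and 124 CPM in KD DMSO, a smaller log2 difference of 0.98 ± 0.12 (adjusted p = 0.000516). In these 3 genes the KD libraries lay above the parental libraries in each condition. Such a separation was seen in 30.5% of tested genes in DMSO and 25.6% under largazole.

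The ISG15 system attaches a ubiquitin-like protein to other proteins and takes it off again. Isg15, the modifier itself, stood at 2.07 and 2.36 CPM in parental DMSO, 55.3 and 18.4 in KD DMSO, 6.95 and 6.20 in parental largazole and 43.9 and 35.0 in KD largazole. Its log2 difference between genotypes was 4.05 ± 0.51 in DMSO (adjusted p = 0.000813). Usp18, which removes ISG15 and also restrains type I receptor signalling, rose in the same comparison from 0.666 and 1.42 to 45.2 and 17.4 CPM (4.88 ± 0.55, adjusted p = 0.000411). Herc6, the main ISG15 ligase of mouse, was at 6.06 and 7.42 against 33.3 and 16.7 CPM (1.89 ± 0.31, adjusted p = 0.00356). Each of the 3 was 2.0 to 3.0 times as high in KD DMSO replicate 1 as in replicate 2, while both replicates lay above every parental library.

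Parp9 and Parp14 belong to the ADP-ribosyltransferase family, and Dtx3l is the ubiquitin ligase partner of Parp9. Parp9 was at 9.32 and 11.3 CPM in parental DMSO and 48.3 and 34.2 CPM in KD DMSO, and Dtx3l at 9.47 and 9.31 against 32.7 and 21.8 CPM. Their log2 differences were 2.00 ± 0.18 and 1.54 ± 0.23 (adjusted p = 0.00013 and 0.00237). Exons of these neighbours overlap over 458 bases on opposite strands, so reads there cannot be told apart unless the counting used strand. Parp14 was at 5.40 and 6.34 against 41.3 and 27.8 CPM (2.56 ± 0.22, adjusted p = 9.71e-05), and was lower in both KD largazole libraries, at 17.9 and 22.6 CPM.

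Among the effectors, the IFIT proteins bind viral RNA or translation factors. Ifit1 stood at 2.66 and 2.5 CPM in parental DMSO, 44.1 and 28.4 in KD DMSO, 2.45 and 3.69 in parental largazole and 21.5 and 23.8 in KD largazole. Its log2 difference was 3.81 ± 0.27 in DMSO and 2.88 ± 0.27 under largazole (adjusted p = 3e-05 and 0.000156). Ifit3 stood at 0.739 and 0.742 CPM in parental DMSO, 10.4 and 8.25 in KD DMSO, 1.43 and 0.725 in parental largazole and 3.51 and 5.13 in KD largazole. In both genes every KD library lay above every parental library, and the KD DMSO libraries lay highest. Ifit2, although it lies in the same cluster on chromosome 19, differed little, with 24.8 and 22.5 against 35.9 and 34.9 CPM in DMSO (0.58 ± 0.13, adjusted p = 0.0211). Reads of Ifit3 may be shared with near-identical copies of the gene, which leaves its level uncertain.

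The OAS family makes or resembles enzymes that make 2′-5′ oligoadenylates, the activators of RNase L. Oas3 stood at 1.48 and 3.64 CPM in parental DMSO, 65 and 29.9 in KD DMSO, 11.1 and 12.9 in parental largazole and 62.0 and 65.2 in KD largazole, with a log2 knockdown difference of 4.19 ± 0.42 in DMSO (adjusted p = 0.000213). Oas2 had 3 counts over both parental DMSO libraries and 160 over both KD DMSO libraries, a ratio of 52.6 with a 95% counting interval of 17.7 to 258. Oas1a had 5 counts against 94, of which most came from KD DMSO replicate 1 (5.40 CPM, against 0.884 CPM in replicate 2), and its adjusted p was 0.0311. The relatives Oasl1 and Oasl2 differed by 1.23 ± 0.25 and 3.42 ± 0.41 (adjusted p = 0.0123 and 0.000599). Oasl2 was at 2.37 and 4.86 CPM in parental DMSO and 54.4 and 23.4 CPM in KD DMSO. Members of the OAS cluster on chromosome 5 are similar in sequence, and reads may have been split between Oas1a and its copies.

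The dynamin-like GTPases Mx1 and Mx2 form rings around viral nucleoproteins. Mx1 was barely expressed, with 2 counts over the parental DMSO libraries and 29 over the KD DMSO libraries, a ratio of 14.3 (95% counting interval 3.62 to 124). Mx2, which the annotation lists as a polymorphic pseudogene, was at 0.0739 and 0.405 CPM in parental DMSO and 10.3 and 5.89 CPM in KD DMSO (5.0 ± 0.52, adjusted p = 0.000274). In parental largazole libraries it stood at 1.63 and 1.91 CPM and in KD largazole libraries at 5.61 and 6.81 CPM, so the genotypes lay closer together than in DMSO.

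The immunity-related GTPases and guanylate-binding proteins act on the membranes of vacuoles that hold intracellular pathogens. Iigp1 had 2 counts in parental DMSO and 159 in KD DMSO, a ratio of 78.4 (95% counting interval 21.3 to 653). Gbp2 was at 3.77 and 3.44 CPM in parental DMSO, 20.6 and 14.7 in KD DMSO, 11.7 and 11.9 in parental largazole and 37.5 and 39 in KD largazole. It passed the test for the knockdown (2.29 ± 0.20, adjusted p = 9.71e-05, in DMSO) and no libraries of its 4 groups overlapped. Gbp3 was at 1.11 and 2.02 against 33.3 and 12.8 CPM in DMSO (3.87 ± 0.49, adjusted p = 0.000831) and Gbp7 at 3.85 and 4.12 against 25.4 and 20.3 CPM (2.52 ± 0.21, adjusted p = 8.8e-05). Igtp and Irgm1 started higher and differed less, by 1.88 ± 0.28 and 1.38 ± 0.19 (adjusted p = 0.00217 and 0.00119). The 3 guanylate-binding members lie in 1 cluster on chromosome 3, and reads may have been split among similar genes there.

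Rsad2 (viperin), which makes a chain-terminating nucleotide, and Cmpk2, a nucleotide kinase encoded next to it on chromosome 12, rose together. Rsad2 was at 0.222 and 0.945 CPM in parental DMSO and 7.44 and 5.97 CPM in KD DMSO (3.47 ± 0.38, adjusted p = 0.000374), and Cmpk2 at 0.148 and 0.472 against 9.09 and 6.63 CPM (4.6 ± 0.39, adjusted p = 8.84e-05). Samd9l, a translation-repressing antiviral factor, was at 9.54 and 9.11 against 52.6 and 37.0 CPM (2.27 ± 0.19, adjusted p = 8.06e-05). Isg20, an exonuclease, was the exception in this group, with 8.28 and 11.7 CPM in parental DMSO and 13.3 and 10.7 CPM in KD DMSO. Its libraries overlapped between genotypes, and the 95% interval of its log2 difference ran from -0.19 to 0.71.

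Of the remaining 6 effectors, Ifi44 showed the largest difference. It stood at 0.666 and 0.540 CPM in parental DMSO, 53.5 and 19.6 in KD DMSO, 0.409 and 0.923 in parental largazole and 9.82 and 9.24 in KD largazole, and its log2 difference was 5.92 ± 0.60 in DMSO and 3.81 ± 0.69 under largazole (adjusted p = 0.000253 and 0.00455). Bst2, which encodes tetherin, a membrane protein that holds budding virus on the cell, was at 19.7 and 22.3 against 152 and 61.8 CPM in DMSO (2.35 ± 0.37, adjusted p = 0.00291). The lower of these KD libraries lay below the parental largazole libraries, at 66.9 and 64.2 CPM. Ifi27, a mitochondrial and nuclear envelope protein gene, was at 32.7 and 38.8 against 109 and 105 CPM, with close replicates (1.58 ± 0.13, adjusted p = 8.84e-05). Rtp4, a receptor chaperone (3.87 ± 0.33, adjusted p = 8.84e-05), Xaf1, a proapoptotic factor (2.87 ± 0.34, adjusted p = 0.000516), and Ifi35 (1.35 ± 0.23, adjusted p = 0.0054) rose too.

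**Figure D3:**
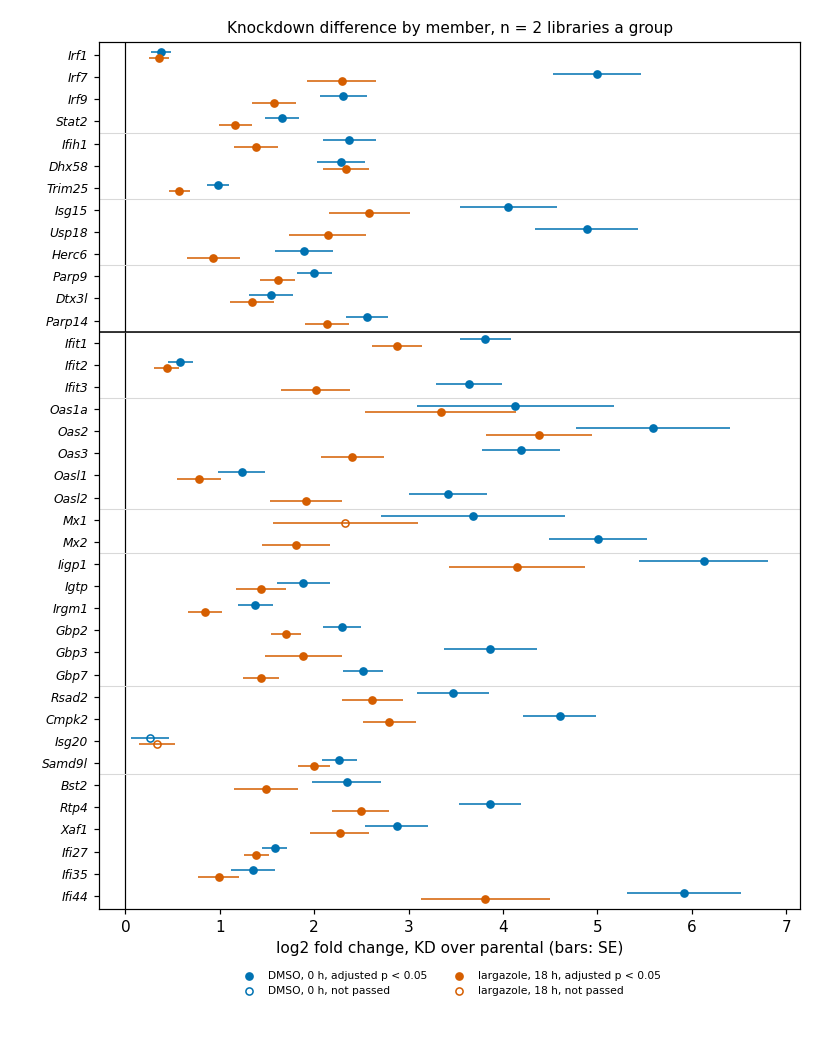
Log2 fold change of KD over parental cells for each member in DMSO (blue) and under largazole (orange), with bars of 1 SE and open circles where the adjusted p was not below 0.05 (2 libraries a group). All points lie to the right of 0, and the orange point lies left of the blue one in 37 of 39 members. For Oas2, Mx1 and Iigp1, with 2 or 3 counts in parental DMSO, the plotted values depend on the prior count of the fit.

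The KD DMSO replicates differed from each other in these genes, and in 1 direction. Replicate 1 was higher than replicate 2 in 39 of 39 members, with a median log2 ratio of 0.63 (1.55-fold) and a range of 0.04 to 2.09. Over the 10183 genes of at least 5 CPM the median was 0.00, replicate 1 was higher in 49.3%, and the central 95% of ratios ran from -0.36 to 0.40. In the other groups replicate 1 was higher in 10 (parental DMSO), 20 (parental largazole) and 16 (KD largazole) of 39 members. In CPM the ratio was highest in Oas1a (6.11), Oas2 (3.08) and Isg15 (3.0), and lowest in Ifit2 and Ifi27 (1.03 each). Rn45s was at 9963 CPM in KD DMSO replicate 1 and 2549 CPM in replicate 2, and its part in the difference between replicates was not tested. Replicate 2 taken alone still lay above both parental DMSO libraries in 38 of 39 members, at a median of 4.73 times the parental mean, against 7.03 times for replicate 1. Without the 3 libraries of highest Rn45s the median log2 difference of the members in DMSO was 2.22, and 38 were called higher. That fit leaves 1 library in every group but parental DMSO, so its spread comes from the parental DMSO pair alone and its calls assume that the other groups vary alike.

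**Figure D4:**
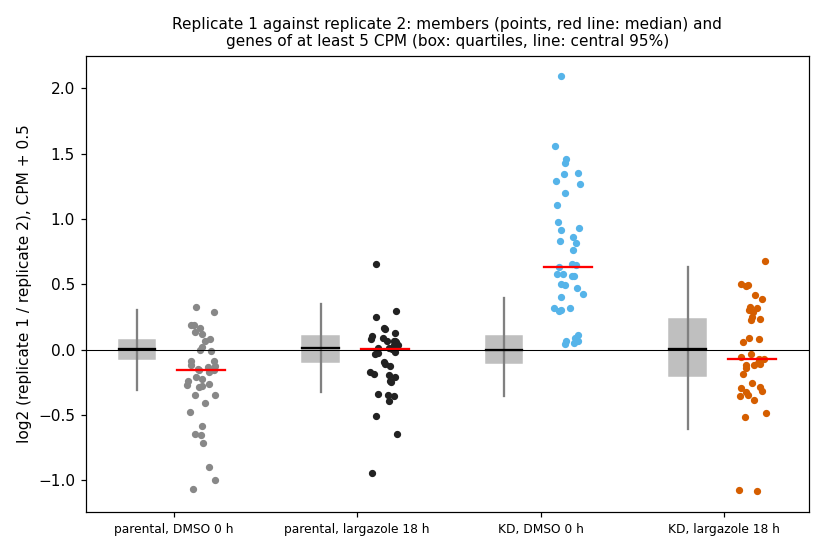
Log2 ratio of replicate 1 to replicate 2 within each group, after adding 0.5 CPM, for the 39 members (points, red line at their median) and for all genes of at least 5 CPM (grey box of the quartiles, black median, line over the central 95%). In KD DMSO all 39 points lie above 0, around a median of 0.63, while in the other groups they lie on both sides of 0.

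Under largazole the antiviral genes were again higher in KD than in parental cells. At 18 h 37 of 39 members rose and none fell, where 8.51% of tested genes were called higher and 9.81% lower. The median log2 difference was 1.88 (signalling members 1.57, effectors 1.96), against 0.00 over all tested genes. Mx1 (2.33 ± 0.77, adjusted p = 0.0559) and Isg20 (0.33 ± 0.19, adjusted p = 0.252) did not pass. Fitted folds reached at least 2 in 31 members, at least 4 in 17 and at least 16 in 2, Oas2 and Iigp1. In parental largazole libraries Oas2 had 7 and 6 counts, Iigp1 2 and 2, Mx1 3 and 3, Oas1a 2 and 11 and Ifi44 6 and 14. These genes, all effectors, were tested because of their counts in KD cells, and their folds are imprecise. The filter favoured a rise in them, so they add no support to the counts, the effector median and the separations given here. In all 39 members both KD libraries lay above both parental libraries, a separation seen in 25.6% of tested genes. In 36 of 39 members all 4 KD libraries lay above all 4 parental libraries, against 6.28% of tested genes, and the exceptions were Irf1, Isg20 and Bst2. The knockdown comparisons in DMSO and under largazole use different libraries, which share the cell line and 1 fit. Across the 39 members their log2 differences correlated with r = 0.891 and rho = 0.881, and across the 12517 tested genes with r = 0.557 and rho = 0.629. Fewer members passed when a parental largazole library was left out, 22 without replicate 1 and 25 without replicate 2, though all 39 differences kept their sign. In the same comparison 4 of 6 tested fibroblast markers rose (Dcn 1.24 ± 0.08, Thy1 0.89 ± 0.10, Pdgfra 0.73 ± 0.11 and Pdgfrb 0.68 ± 0.10), with the list at 3670 to 4170 CPM in KD and 3240 to 3300 CPM in parental largazole libraries. Cd68 fell by 0.48 ± 0.11 (adjusted p = 0.0125), and the 4 leukocyte markers summed to 3.3 to 4.36 and 3.2 to 3.82 CPM. The part of these markers in the members' difference was not tested.

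The largest knockdown differences under largazole were in genes nearly silent in parental cells. Oas2 stood at 0.477 and 0.395 CPM in parental largazole and 8.96 and 9.51 CPM in KD largazole (4.38 ± 0.56, adjusted p = 0.000592). Dhx58 was among the 2 members whose difference was not smaller than in DMSO, with 9.47 and 9.62 against 46.5 and 49.8 CPM (2.33 ± 0.25, adjusted p = 0.00027). Cmpk2 at 1.36 and 1.32 against 8.96 and 9.71 CPM (2.79 ± 0.28, adjusted p = 0.00023) and Samd9l at 15.1 and 16.2 against 56 and 68.9 CPM (2.00 ± 0.17, adjusted p = 0.000115) had replicates that lay close together beside the gap between genotypes. Irf9 (1.57 ± 0.23, adjusted p = 0.00164), Stat2 (1.16 ± 0.18, adjusted p = 0.00182), Parp9 (1.61 ± 0.18, adjusted p = 0.000404) and Rsad2 (2.62 ± 0.32, adjusted p = 0.000623) were also higher.

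In parental cells largazole raised part of this set. Of 39 members 18 rose and none fell, where 26.9% of tested genes were called higher and 22.7% lower. The median log2 fold change was 0.84, against 0.03 over all tested genes, and 37 of 39 members had a positive sign. Of the signalling members 7 of 13 rose (Irf1, Irf7, Irf9, Ifih1, Trim25, Usp18 and Herc6), and of the effectors 11 of 26 (Oas3, Mx2, Irgm1, Gbp2, Gbp3, Gbp7, Cmpk2, Samd9l, Bst2, Ifi27 and Ifi35). No member of the IFIT family or of the ADP-ribosylation group passed. In 29 members both parental largazole libraries lay above both DMSO libraries, which was so in 42.2% of tested genes. The count of 18 rested on single libraries: it was 6 without parental DMSO replicate 1 and 10 without parental largazole replicate 2.

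The responders in parental cells included genes from most roles. Ifi27 rose from 32.7 and 38.8 to 91.7 and 86.9 CPM (1.32 ± 0.13, adjusted p = 3.49e-05). Gbp2 rose from 3.77 and 3.44 to 11.7 and 11.9 CPM (1.71 ± 0.21, adjusted p = 0.000109). Ifih1 rose from 3.77 and 2.90 to 8.85 and 11.3 CPM (1.60 ± 0.30, adjusted p = 0.00146). In each of these 3 genes the replicates lay close together beside the change. Oas3 (2.20 ± 0.46, adjusted p = 0.00302), Bst2 (1.64 ± 0.37, adjusted p = 0.00438), Usp18 (2.59 ± 0.67, adjusted p = 0.00906) and Mx2 (2.80 ± 0.71, adjusted p = 0.00827) rose from lower counts or with wider errors, and Mx2 and Usp18 lost their call without parental DMSO replicate 1. Isg15 just missed the threshold (1.56 ± 0.61, adjusted p = 0.0563). The 4 leukocyte markers summed to 3.2 to 3.82 CPM in parental largazole and 0.202 to 0.222 CPM in parental DMSO libraries. The 8 macrophage and dendritic cell markers summed to 62.3 to 63.3 and 4.14 to 5.13 CPM, nearly all of it Cd68 (62.1 and 61.5 against 3.92 and 4.39 CPM), while Adgre1, C1qa and Siglech had 0 counts in all libraries. The 10 markers of squamous epithelium summed to 170 to 175 and 94.9 to 102 CPM in the same libraries. The part of these markers in the members' response was not tested.

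In KD cells, with all libraries, the members showed no common direction with largazole. Neither count of calls exceeded the share of all tested genes. Of 39 members 6 rose, where 25.0% of tested genes were called higher, and 5 fell, where 23.2% were called lower. The median log2 fold change was 0.05, against 0.01 over all tested genes. Ifi27 rose from 109 and 105 to 265 and 202 CPM (1.13 ± 0.13, adjusted p = 6.62e-05) and Gbp2 from 20.6 and 14.7 to 37.5 and 39 CPM (1.12 ± 0.15, adjusted p = 0.000241). Ifih1 (0.61 ± 0.22, adjusted p = 0.0393), Irf1 (0.40 ± 0.10, adjusted p = 0.00943), Isg20 (0.58 ± 0.19, adjusted p = 0.0287) and Samd9l (0.48 ± 0.16, adjusted p = 0.0318) rose less. Ifi44 fell by 1.95 ± 0.39 (adjusted p = 0.00234), Ifit3 fell by 1.10 ± 0.25 (adjusted p = 0.00474), Iigp1 fell by 1.13 ± 0.34 (adjusted p = 0.0158), Parp14 fell by 0.77 ± 0.19 (adjusted p = 0.00789) and Ifit1 fell by 0.68 ± 0.20 (adjusted p = 0.0186). In 6 members both KD largazole libraries lay below both KD DMSO libraries, and in 7 they lay above them, against 34.0% and 35.6% of tested genes.

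The direction of the members in KD cells depended on the KD DMSO library used. Without KD DMSO replicate 1 the estimate was positive in 32 of 39 members, and without replicate 2 in 11. The median over members was 0.43 without replicate 1 and -0.28 without replicate 2, so its direction turned. Over all genes the median was 0.02 in both fits. Ifi27 and Gbp2 rose, and Ifi44 and Ifit3 fell, in both of these fits. The mean of the KD largazole libraries lay below KD DMSO replicate 1 in 28 members and above replicate 2 in 32, and in 12 members both largazole libraries lay between the DMSO replicates. These positions were not counted over all genes. Without the 3 libraries of highest Rn45s, among them KD DMSO replicate 1, the median over members was 0.42, against 0.01 over all genes. Each KD group then holds 1 library, and the spread is that of the parental DMSO pair alone.

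**Figure D5:**
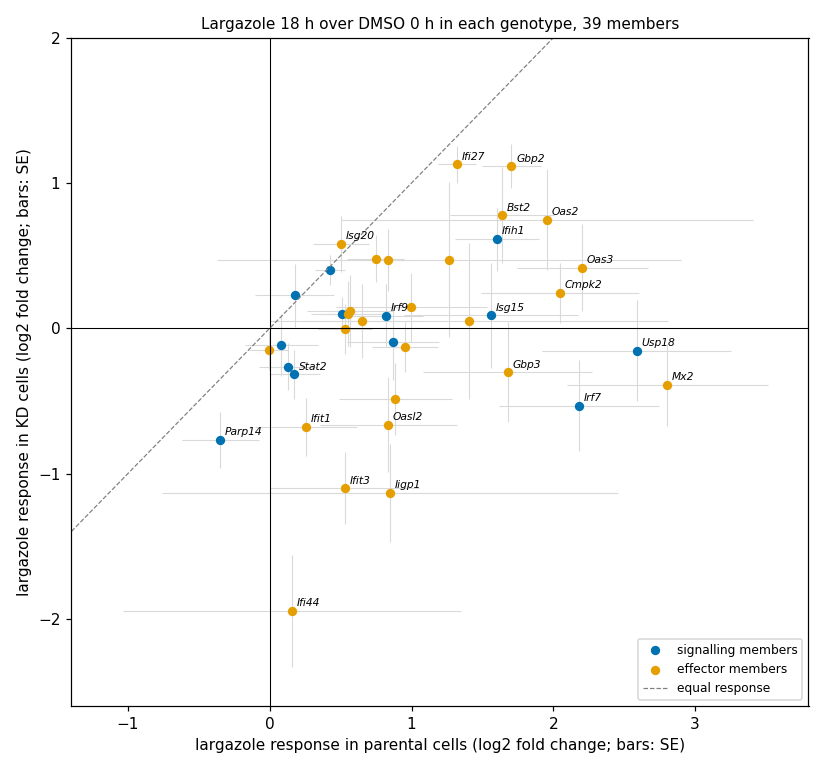
Log2 fold change of largazole at 18 h over DMSO at 0 h in parental cells (horizontal axis) and KD cells (vertical axis) for the 39 members, blue for signalling members and orange for effectors, with bars of 1 SE (2 libraries a group). The dashed line marks equal responses, and 37 of 39 points lie below it. Mx2, Usp18 and Oas3 lie farthest to the right, and Ifi44 lies lowest.

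The difference between the largazole responses of KD and parental cells passed the test in 0 of 39 members, where 0.0320% of tested genes were called with a larger and 0.176% with a smaller response in KD cells (edgeR). At an unadjusted p under 0.05 there were 15 members, beside 1087 of 12517 tested genes. DESeq2 called 2 members lower (Irf7 and Mx2), beside 21 genes higher and 62 lower among all tested. With limma-voom 0 members were called, beside 4 genes higher and 19 lower. The estimate was negative in 37 of 39 members and in 6905 of 12517 genes, with medians of -0.86 and -0.03. Of the 877 genes called higher with the knockdown in DMSO, 78.3% had a smaller knockdown difference under largazole, which is the same quantity, and nearly all members are among these genes. The members' values are not independent of each other, since all rest on the same 8 libraries. The largest were those of Mx2 (-3.19 ± 0.76, adjusted p = 0.168), Usp18 (-2.74 ± 0.76, adjusted p = 0.257) and Irf7 (-2.71 ± 0.65, adjusted p = 0.168). Their 95% intervals were -4.90 to -1.49, -4.44 to -1.04 and -4.15 to -1.27. Dhx58 (0.05 ± 0.35, adjusted p = 0.999) and Isg20 (0.08 ± 0.27, adjusted p = 0.986) had positive estimates, and Irf1 was near 0 (-0.02 ± 0.15, adjusted p = 0.999). The median estimate shrank to -0.32 without KD DMSO replicate 1 and grew to -1.20 without KD DMSO replicate 2. A p that misses the threshold does not show that the responses were alike.

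Levels of the members per kilobase of exon spanned a wide range. In parental DMSO cells Ifi27 (24.4 CPM per kilobase) and Bst2 (23.3) stood above Trim25 (11.4) and Irf1 (9.11), and Oas2 (0.0235), Mx1 (0.0178) and Iigp1 (0.0116) stood lowest. In KD DMSO cells Bst2 (118 CPM per kilobase), Ifi27 (72.9) and Isg15 (48.7) were highest, with Trim25 (22.4) next, so Isg15, which ranked 11 in parental DMSO cells, ranked 3. Ifi27 at 74.1 and 71.7 and Isg15 at 73.1 and 24.4 CPM per kilobase overlapped between libraries, and so did Ifi27 and Bst2 at 168 and 68.4, so these neighbours do not differ beyond their spread.

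Genes of the pathway outside the members were taken from fixed lists. Their counts stand beside 7.01% of tested genes called higher and 4.02% lower with the knockdown in DMSO, and 8.51% and 9.81% under largazole. Of 21 interferon ligand genes none had enough counts to be tested, and Ifnb1, Ifng, Ifnk, Ifnl2, Ifnl3 and the 13 listed Ifna genes had 0 counts in all 8 libraries. Ifnz had at most 6 counts in a library, Ifne 2 and Ifnab 1. A count of 0 allows up to 3 counts in a library, so ligand RNA below that level would not have been detectable at this depth. Of 5 receptor chains tested, Ifnar2, a chain of the type I receptor, and Ifngr2, a chain of the type II receptor, rose with the knockdown in DMSO (0.51 ± 0.11 and 0.40 ± 0.08, adjusted p = 0.0174 and 0.0143) and under largazole (0.49 ± 0.11 and 0.49 ± 0.08, adjusted p = 0.0143 and 0.00352). Ifnar1 (0.10 ± 0.08), Ifngr1 (0.30 ± 0.10) and Il10rb (0.34 ± 0.13) did not pass in DMSO, and Ifnlr1, the specific chain of the type III receptor, had 0 counts throughout.

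Of 8 kinases, STATs and interferon regulatory factors outside the members that are described here, 1 rose with the knockdown and none fell in either condition. Over all tested genes 7.01% were called higher in DMSO and 8.51% under largazole. Stat3, which serves interleukin 6 family receptors, rose with it (0.84 ± 0.08, adjusted p = 0.000168, in DMSO, and 0.60 ± 0.08, adjusted p = 0.000898, under largazole) and with largazole (0.76 ± 0.08, adjusted p = 4.58e-05, in parental cells). Jak1, Jak2, Tyk2, Irf2, Irf3 and Irf5 did not pass with the knockdown in DMSO, with log2 differences of -0.20 to 0.41. Irf8 did not pass with the knockdown either (0.02 ± 0.17 in DMSO), and fell with largazole by 0.93 ± 0.19 in parental and by 0.90 ± 0.19 in KD cells (adjusted p = 0.00247 and 0.003). Of 9 inhibitors of the pathway 1 rose in DMSO, Socs3, a feedback inhibitor of cytokine receptors (0.66 ± 0.09, adjusted p = 0.00166). Under largazole Socs3 rose (0.65 ± 0.09, adjusted p = 0.00143) and Ptpn1, a tyrosine phosphatase, was lower (-0.35 ± 0.08, adjusted p = 0.0191). These counts of inhibitors lie near the shares of all tested genes.

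Exons of further members overlap those of other genes in the same files, which leaves a share of their reads uncertain without strand. Irf7 overlaps Phrf1 over 45 bases and Irf9 overlaps Rnf31 over 123 bases. Igtp overlaps Irgm2 over 162 bases and Gbp2 overlaps Mir6381 over 24 bases.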

How the data were processed

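Polyadenylated RNA of A223 cells was sequenced in 8 directional libraries, 2 replicates of each of 4 groups, per the labels' protocols. The authors deposited estimated counts for each gene symbol, and the values show no scaling to library size. The build was mm10, per the submitters' processing notes. The software for alignment and counting, the annotation and whether counting used strand were not given in the sources used here. Estimated counts were rounded to whole numbers. Spreadsheet software had turned 27 gene symbols into dates, and none is a member.

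All genes were fitted together with edgeR 4.0.16 (R 4.3.3): TMM scaling, filterByExpr with a minimum count of 10 and a minimum total of 15, 1 mean per group over all 8 libraries, the quasi-likelihood F test (two-sided) and Benjamini-Hochberg adjustment over 12517 genes. SE is the absolute log2 fold change over the square root of F. Depth of 13020492 to 15613216 counts leaves genes with few counts imprecise, and intervals on counts and floors of 3 counts cover counting error only. Levels per kilobase use exon lengths of GENCODE M21, and promoters are RefSeq's on GRCm38.p6.

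The members and gene lists were chosen with earlier results of these data known. All 39 members, Prdx6, Rn45s and fixed pathway lists are named, except 1 listed gene that is not reported here. Alternatives were other scalings, filters, DESeq2 1.42.0, limma-voom (limma 3.58.1), only the libraries compared, a replicate block, removal of Rn45s and leaving out each library. The older quasi-likelihood method and leaving out the 3 libraries of highest Rn45s were added after seeing the data. The test was checked on simulated data. Figures were drawn with matplotlib 3.10.9.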

Additional observations from a re-analysis of the deposited data

How the results depend on the processing

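Depth limits the members with fewest counts in parental cells (Oas1a, Oas2, Mx1, Mx2, Iigp1, Cmpk2 and Ifi44), and with 2 libraries a group each library weighs heavily. Over the settings other than leaving out 1 library, the members called were 36 to 38 for the knockdown in DMSO, 34 to 38 for the knockdown under largazole and 12 to 25 for largazole in parental cells, all higher. Without any 1 library they were 31 to 38, 22 to 37 and 6 to 22. For largazole in KD cells, 2 to 15 members rose and 2 to 11 fell without any 1 library. With only the libraries compared, 3 rose, and without the 3 libraries of highest Rn45s 22 rose and 2 fell. That fit holds 1 library in 3 of the 4 groups and takes its spread from the parental DMSO pair alone, so its calls have no replicate check in the other groups. For the difference between responses, 0 to 3 members were called lower without any 1 library, 2 with DESeq2, and 8 without the libraries of highest Rn45s (Bst2, Gbp7, Ifi27, Irf7, Mx2, Oas3, Rtp4 and Usp18). None was called higher under any setting run. The cause was not tested.

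For largazole in KD cells 6 members that had not passed with all libraries passed with the opposite sign under another choice of libraries. Isg15 ranged from -0.49 without KD DMSO replicate 2 to 1.09 without KD DMSO replicate 1. Without the libraries of highest Rn45s the log2 fold changes were 0.43 for Usp18, 0.66 for Herc6, 0.44 for Dtx3l, 0.34 for Irgm1 and 0.42 for Gbp3.

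Same-numbered libraries did not deviate together in every pair of groups (correlations of 0.00 to 0.41), so the numbers were not taken to pair them. With the replicate number as a block, 38 members rose with the knockdown in DMSO, 38 under largazole, and 22 with largazole in parental cells, and in KD cells 9 rose and 6 fell. In the difference between responses 2 were then called lower, Irf7 and Usp18. Over all genes, the knockdown in DMSO gave 315 to 1606 higher and 83 to 1453 lower without any 1 library, and 720 to 1745 and 429 to 1862 under the other settings. Under largazole these were 416 to 2051 and 419 to 2124, and 535 to 2103 and 430 to 2106.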
